A study of Mus musculus with 20 samples.

Results

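Amino acid transporters of 7 solute carrier families were followed across mouse liver, growing colorectal liver metastases (CRLM) and myeloid cells taken from them. Members were the protein-coding genes of both count tables whose names begin with Slc1a, Slc3a, Slc6a, Slc7a, Slc36a, Slc38a or Slc43a and a number, with 1 such gene left out. This gave 63 of 54532 listed genes (22046 of them protein-coding): 6 of Slc1, 2 of Slc3, 21 of Slc6, 16 of Slc7, 4 of Slc36, 11 of Slc38 and 3 of Slc43. The name rule also caught Slc7a6os, the gene beside Slc7a6 on the opposite strand, which is no transporter, and Slc43a3, which is known as a carrier of nucleobases. The listed spans of Slc7a6, which ends at base 106198706, and Slc7a6os, which begins at base 106200717, do not overlap.

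The study injected 1000000 Mc38 cells, a colon cancer line of C57BL/6 origin, through the spleen of wild-type mice and took tumor-centric pieces of liver. Tissue libraries were normal liver of mice given normal saline at day 0 (con, 2 libraries), tumor-free liver remote from tumor at 12 days post-injection (dpi) (L-con, 1), low-content tumor at 9 dpi (Lt, 2), medium-content tumor at 9 dpi (Mt3, 2) and 11 dpi (Mt2, 2, and Mt1, 2), and high-content tumor at 12 dpi (Ht, 3). F4/80+ cells and CD11b+ cells (3 libraries each) were pulled with magnetic beads from Mt2 metastases at 11 dpi, so they are enriched rather than pure. The labels give male mice for the tissue and no sex for the sorted cells, the Methods give female C57BL/6 mice of 6 to 8 weeks, and no label names the mouse behind a library. The Methods give separate livers for the tissue groups other than L-con. For the sorted cells the source of each library is not stated in the labels, and there p-values measure the spread between libraries, which may be technical. The metastases come from a single transplanted line, every piece mixes tumor cells with liver and immune cells, and fewer cells of a type and less RNA per cell cannot be told apart in bulk tissue.

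Amino acids cross membranes only through carriers, and the families divide the work. Slc3a2 and Slc3a1 are heavy chains that bring Slc7 light chains to the surface, and the light chains exchange amino acids: Slc7a5 and Slc7a8 carry large neutral amino acids, Slc7a6 and Slc7a7 exchange cationic for neutral ones, and Slc7a11 takes up cystine for glutamate. Slc7a1 and Slc7a2 carry arginine and lysine without a heavy chain, Slc1a4 and Slc1a5 exchange small neutral amino acids, Slc1a5 glutamine among them, and the Slc38 family brings in alanine and glutamine with sodium (system A) or moves glutamine and histidine (system N). Normal hepatocytes take up alanine, glutamine and arginine for glucose and urea synthesis, whereas growing tumor cells commonly carry much Slc7a5 and Slc1a5.

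Libraries held 16032085 to 18246623 counts in tissue and 17785496 to 20548370 in sorted cells. Levels are given as FPKM, read counts per gene length and library size after TMM scaling, so that genes can be compared. Ht_1 and Ht_3, said in the Methods to have been made identical, were summed, and the 3 Ht libraries are therefore given as 2 values. Their counts did not agree more closely than those of Ht_1 and Ht_2, with a chi-square per degree of freedom of 30.3 against 29.1, and the closest pair was Ht_2 and Ht_3 at 13.2. The summed FPKM of 8 hepatocyte markers was 70170 and 83190 in con and 1387 and 2005 in Ht, and it was 39800 and 10010 in the Mt2 pair and 37880 and 9666 in the Mt1 pair, and also lower in the second library of Lt (69760 and 37100) and Mt3 (53540 and 40340). The 8 macrophage markers summed to 191 to 316 FPKM in con, 1167 to 1189 in Ht and 7024 to 12800 in the sorted cells, and every one of the 8 was detected in each group. The hepatocyte markers were at 44.3 to 144 FPKM in the sorted cells, and 8 neutrophil markers were at 57.2 to 533 in F4/80+ and 1005 to 5937 in CD11b+ cells, the highest in CD11b+ replicate 3.

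Of the 63 members, 37 held enough reads to be tested in at least 1 comparison and 26 in none. Of all 63, 16 had at most 3 counts in every library and 4 (Slc6a5, Slc6a11, Slc6a18 and Slc7a12) had no count in any. The untested members included Slc7a9, the light chain that pairs with Slc3a1 in kidney and gut, with at most 1 count in a library, and the neuronal carriers Slc6a3 and Slc6a4 with at most 2 and 7. No member outside the tests passed 8 counts in any library. Mean FPKM reached 1 in at least 1 group for 29 members.

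**Figure D1:**
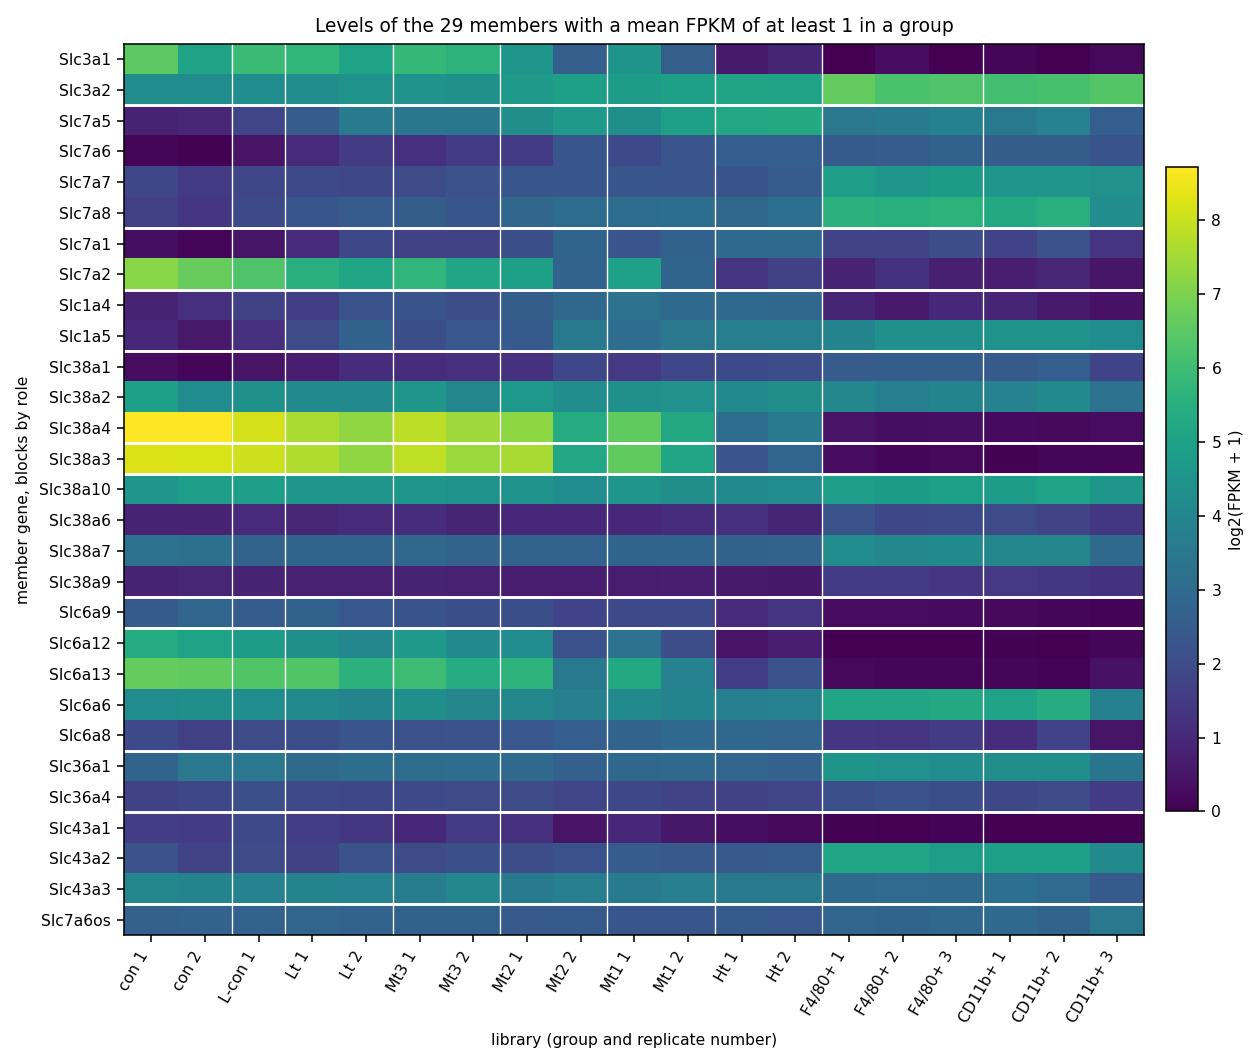
Levels of the 29 members with a mean FPKM of at least 1 in a group, as log2(FPKM + 1), in 13 tissue and 6 sorted-cell libraries (columns, with Ht replicate 1 the sum of 2 libraries); white horizontal lines part the roles. Slc38a3 and Slc38a4 are brightest in con, at 300 to 419 FPKM, and dark in sorted cells, where Slc3a2 is brightest at 66.6 to 98.5 FPKM.

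In normal liver a few carriers held most of the summed level. Slc38a4 (409 and 419 FPKM), Slc38a3 (300 and 302 FPKM) and Slc7a2 (102 and 144 FPKM) together made up 69.5% and 72.6% of the summed member FPKM of the con libraries, ahead of Slc6a13 (96.2 and 99.3 FPKM). In Ht the leaders were Slc7a5 (35.4 and 38.6 FPKM), Slc3a2 (32.2 and 33.0 FPKM) and Slc38a2 (17.2 and 18.6 FPKM), at 38.1% and 39.0% of the sum. Slc38a3 and Slc38a4 went from 58.0% and 63.5% of the member sum in con to 5.21% and 7.07% in Ht, as a description with no test, and the sum itself went from 1117 and 1244 FPKM to 220 and 235 FPKM. In that order neither Slc7a5 and Slc3a2 in Ht nor Slc38a4 and Slc38a3 in con overlapped between libraries.

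Tissue groups were tested with the quasi-likelihood F test of edgeR. A gene was called higher or lower where its Benjamini-Hochberg adjusted p, over all genes tested, was at most 0.05 and its log2 fold change was 1 or more in size. From con to Lt, normal liver against small metastases, 7 of 36 members tested were called higher (19.4%, against 12.4% of all 17187 genes) and 0 lower (0.256% of all genes). The 7 were Slc7a1, Slc7a5, Slc7a6, Slc7a8, Slc1a4, Slc1a5 and Slc38a1. Before adjustment 10 of the 36 members and 4917 of the 17187 genes had a p under 0.05, and DESeq2 also called 7 members higher and 0 lower (13.8% and 0.966% of all genes). Leaving out con replicate 2 or Lt replicate 2 leaves 1 library in a group, and Slc1a4, Slc1a5 and Slc38a1 were then no longer called. Their log2 fold changes were 1.78, 2.09 and 2.09 without con replicate 2 and 0.965, 2.04 and 1.93 without Lt replicate 2. Slc7a8, at 0.99, was also lost without con replicate 2. In both fits fewer of all genes were called higher than with all libraries. Lt replicate 2 had the lower hepatocyte sum of its pair and more T and NK cell marker RNA (19.8 FPKM in sum against 5.86), and their part in these calls was not tested. A fit of only con and Lt libraries called Slc38a4, Slc6a12 and Slc7a2 lower and lost Slc1a4 (adjusted p = 0.058, edgeR). In that fit 12.3% of all genes were called higher and 2.1% lower.

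From con to Ht, normal liver against large metastases, 9 of 36 members were called higher (25.0%, against 25.8% of all genes) and 10 lower (27.8%, against 24.1%), shares near those of all genes. The members' median log2 fold change was -0.36 against 0.09 over all genes tested. The 9 higher were the 7 above with Slc7a11 and Slc6a8, and the 10 lower were Slc38a3, Slc38a4, Slc7a2, Slc7a4, Slc3a1, Slc6a9, Slc6a12, Slc6a13, Slc6a16 and Slc43a1. Both comparisons used the same con libraries. Fibroblast and stellate markers were called higher for 6 of 8 in both (and 1 lower from con to Ht), with sums of 49.5 and 66.6 FPKM in con, 240 and 389 in Lt and 767 and 859 in Ht. Macrophage markers were higher for 4 of 8 from con to Lt and 6 of 8 from con to Ht, and neutrophil markers for 4 of 7 tested from con to Lt. From con to Ht 5 of 8 T and NK cell markers were higher and 5 of 8 endothelial markers lower, and the part of these cells in the members' changes was not tested. Under scaling by total counts the all-gene median was 1.27 in place of 0.09 on the log2 scale, with 51.3% of all genes called higher and 13.1% lower, which gave 15 members higher and 9 lower, with Slc1a6, Slc3a2, Slc7a7, Slc36a4, Slc38a6 and Slc43a2 added to the higher ones and Slc6a9 no longer called.

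From Mt to Ht, the mean of the 3 medium groups against large metastases, 2 of 36 members were called higher (5.56%, against 1.5% of all genes) and 9 lower (25.0%, against 13.4%). The higher were Slc7a5 and Slc7a6, and the lower were those of con to Ht without Slc7a4. With Ht replicate 1 or 2 left out no member was called, nor any of all genes tested, and scaling by total counts gave 6 higher and 8 lower, with 15.04% of all genes higher, 10.3% lower and the median of all genes at 0.55 instead of 0.00.

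**Figure D2:**
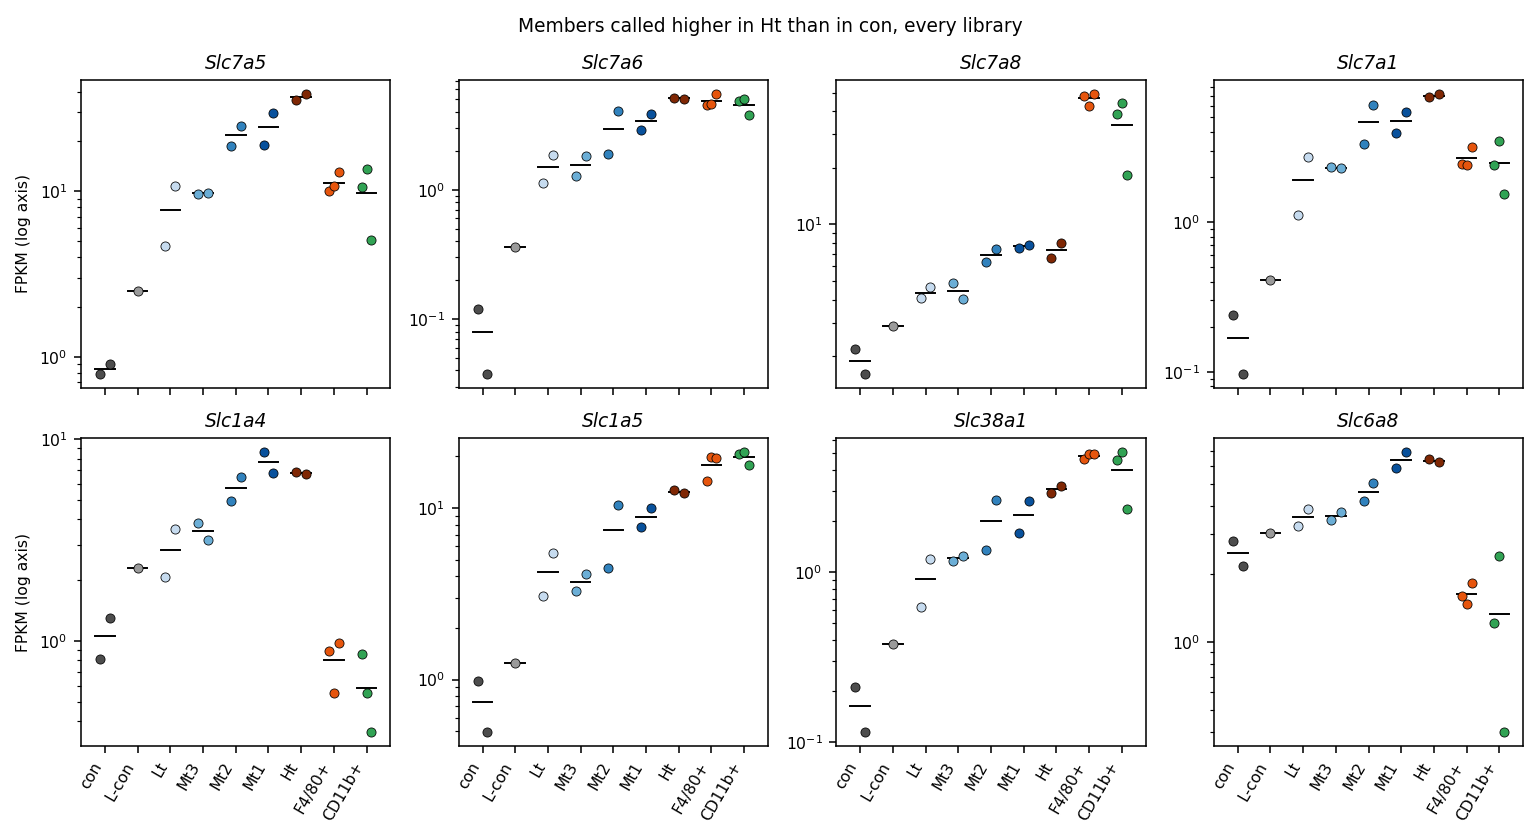
FPKM (log axis) of 8 members called higher in Ht than in con, in every library of the 9 groups; points are libraries, Ht replicate 1 the sum of 2 libraries, and bars are group means. Slc7a5 goes from 0.848 FPKM in con to 37.0 in Ht, while Slc1a4 and Slc6a8 are lower in the sorted cells than in every tumor tissue library.

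The large neutral light chain Slc7a5, the main importer of leucine and other essential amino acids in many tumors, had the largest mean level of the members in Ht. It was at 0.790 and 0.907 FPKM in con, at 4.67 and 10.7 in Lt, at 9.62 to 29.6 (median 19.0) in the 6 Mt libraries, and at 35.4 and 38.6 in Ht. All tumor libraries lay above both con libraries, and both Ht libraries lay above all Mt libraries. The fitted log2 fold change was 3.18 ± 0.41 (SE) from con to Lt (adjusted p = 0.00197, edgeR), 5.43 ± 0.43 from con to Ht (adjusted p = 9.02e-05) and 1.10 ± 0.27 from Mt to Ht (adjusted p = 0.022). The last call was lost without either Ht library and without Mt3 replicate 1 (adjusted p = 0.052).

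Slc7a6, which exchanges arginine for glutamine with sodium, had the largest log2 fold change among the members called higher. It was at 0.120 and 0.0377 FPKM in con, 6 and 2 reads, at 1.13 and 1.87 in Lt and at 5.13 and 5.06 in Ht. The Mt libraries were between 1.27 and 4.04 FPKM, below both Ht libraries. The log2 fold change was 4.24 ± 0.60 from con to Lt, 5.99 ± 0.59 from con to Ht and 1.02 ± 0.31 from Mt to Ht, and the last, with an adjusted p of 0.0455 by edgeR, was lost without either Ht library, Mt1 replicate 1, Mt2 replicate 1, Mt3 replicate 1 or Mt3 replicate 2, in a fit of only the groups compared (adjusted p = 0.053) and with Ht_1 not summed with Ht_3 (0.94, adjusted p = 0.0628).

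Slc7a8, the other large neutral light chain, rose less: 1.62 and 2.18 FPKM in con, 4.07 and 4.64 in Lt and 6.65 and 7.98 in Ht, a log2 fold change of 1.93 ± 0.20 from con to Ht. The Mt libraries were at 4.01 to 7.79 FPKM and overlapped Ht. Slc7a7, the y+L light chain of epithelia and macrophages, had 1.79 and 2.60 FPKM in con and 3.81 and 4.68 in Ht, a log2 fold change of 0.93 ± 0.22 that missed the fold threshold (adjusted p = 0.00499, edgeR). It passed without Ht replicate 1 (1.07), without con replicate 1 (1.23), with no filter (1.05), with at least 10 counts in every library (1.06) and under total-count scaling (2.12). Slc7a11, the cystine importer, was low throughout, with 2 and 0 reads in con and 151 and 83 in Ht, at least 11.2-fold higher against a floor of 3 counts in each con library, and its highest tissue level was 0.387 FPKM in Mt1 replicate 2.

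The heavy chains differed in direction. Slc3a2, the partner of all these light chains, was at 17.5 and 18.0 FPKM in con, 18.5 and 20.5 in Lt and 32.2 and 33.0 in Ht. The log2 fold change of 0.86 ± 0.15 from con to Ht did not reach the fold threshold (adjusted p = 0.000995, edgeR), though no Ht library overlapped con. Slc3a1, known as the partner of cystine and dibasic amino acid carriers, was at 91.1 and 32.1 FPKM in con, where the libraries differed more than for most members, at 53.2 and 32.0 in Lt, at 5.21 to 55.5 in Mt and at 0.551 and 0.873 in Ht. It fell by 6.47 on the log2 scale from con to Ht (SE 1.01, adjusted p = 0.000601, edgeR).

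The cationic carriers moved in opposite directions. Slc7a1, the widespread arginine and lysine carrier, was at 0.238 and 0.0972 FPKM in con, at 1.11 and 2.71 in Lt, at 2.30 to 6.05 in Mt and at 6.80 and 7.14 in Ht. Slc7a2, the carrier of liver and activated macrophages, was at 144 and 102 FPKM in con, at 44.6 and 34.7 in Lt, at 5.83 to 52.1 in Mt and at 1.52 and 2.19 in Ht. From con to Ht the log2 fold change was 5.36 ± 0.57 for Slc7a1 (adjusted p = 0.000133, edgeR) and -6.06 ± 1.00 for Slc7a2 (adjusted p = 0.000758). Slc7a1 thus made up 0.0955% and 0.166% of the summed FPKM of the pair in con and 76.6% and 81.7% in Ht, a pairing chosen after the values were seen. Slc7a4 fell from 0.265 and 0.395 FPKM to 0.0330 and 0.0441, and Slc7a3 and Slc7a14 were not tested.

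In the Slc1 family Slc1a5, the glutamine exchanger of proliferating cells, was at 0.987 and 0.496 FPKM in con, 3.06 and 5.45 in Lt, 3.29 to 10.4 in Mt and 12.7 and 12.3 in Ht, a log2 fold change of 4.06 ± 0.50 from con to Ht (adjusted p = 0.000226, edgeR). From Mt to Ht its log2 fold change was 0.99 ± 0.32 and it was not called (adjusted p = 0.0541), while DESeq2 called it (1.05, adjusted p = 0.0262), as did edgeR without Mt2 replicate 2 (1.24, adjusted p = 0.00685). Slc1a4, which exchanges alanine, serine and cysteine, went from 0.816 and 1.30 FPKM to 2.07 and 3.57 in Lt and 6.90 and 6.75 in Ht. Its highest library was Mt1 replicate 1 at 8.60 FPKM, and from Mt to Ht it was not called. The con to Lt call of Slc1a4 (log2 fold change 1.42 ± 0.32, adjusted p = 0.0186, edgeR) was lost when con replicate 1, con replicate 2 or Lt replicate 2 was left out. The glutamate carriers Slc1a3 and Slc1a6 stayed under 0.35 FPKM in every library and were not called in tissue.

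The system A carriers of Slc38 also parted. Slc38a1 was at 0.212 and 0.115 FPKM in con, 0.623 and 1.20 in Lt, 1.17 to 2.65 in Mt and 2.93 and 3.21 in Ht, and rose by a log2 fold change of 4.21 ± 0.48 from con to Ht (adjusted p = 0.000169, edgeR). Slc38a4, the system A carrier of liver, was at 419 and 409 FPKM in con, 196 and 154 in Lt, 36.9 to 229 in Mt and 7.54 and 10.4 in Ht, and fell by 5.55 on the log2 scale (SE 0.73, adjusted p = 0.000286). Slc38a2, which many cells induce when amino acids are short, was not called in any tissue comparison, with 29.4 and 17.8 FPKM in con and 17.2 and 18.6 in Ht. Slc38a1 held 28.0% and 23.6% of the pair's summed FPKM in Ht, so Slc38a4 remained the larger.

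Slc38a3, the system N carrier that exports and imports glutamine in hepatocytes around the central vein, was at 302 and 300 FPKM in con and at 201 and 153 in Lt. It ranged from 33.9 to 233 FPKM (median 132) in Mt, where the low values were those of Mt2 and Mt1 replicate 2, and was at 3.90 and 6.20 in Ht. It fell by 5.92 on the log2 scale from con to Ht (SE 0.86, adjusted p = 0.000453, edgeR) and by 4.49 from Mt to Ht (SE 0.77, adjusted p = 0.00903). The 8 hepatocyte markers were all called lower from con to Ht, with a median log2 fold change of -5.57, and their part in the members' fall was not tested.

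**Figure D3:**
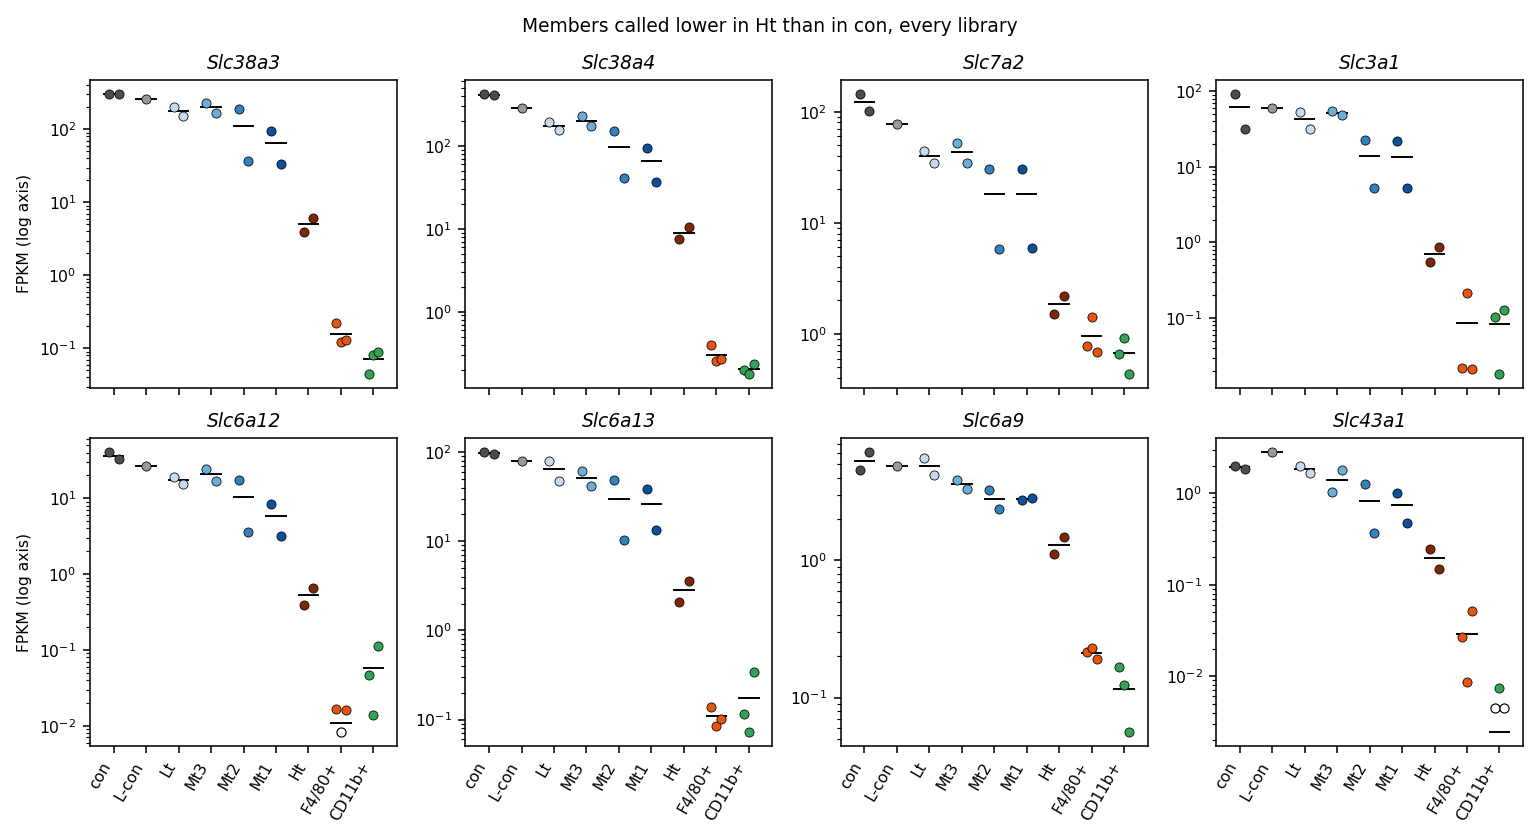
FPKM (log axis) of 8 members called lower in Ht than in con, in every library of the 9 groups; points are libraries, white points are libraries at 0 drawn below the lowest value, and bars are group means. Slc38a3 falls from 301 FPKM in con to 5.05 in Ht, and the second Mt2 and Mt1 libraries lie below the first for every gene shown but Slc6a9 in Mt1.

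In the Slc6 family Slc6a9, Slc6a12, Slc6a13 and Slc6a16 fell from con to Ht, Slc6a8 rose and Slc6a6 was not called. Slc6a13, a carrier of GABA and taurine, was at 99.3 and 96.2 FPKM in con, 79.7 and 47.8 in Lt and 2.10 and 3.62 in Ht (log2 fold change -5.12 ± 0.81, adjusted p = 0.000632, edgeR). Slc6a12, the betaine and GABA carrier, was at 40.4 and 32.6 FPKM in con, 19.2 and 15.3 in Lt and 0.391 and 0.660 in Ht (log2 fold change -6.16 ± 0.82). The glycine carrier Slc6a9 was at 4.50 and 6.11 FPKM in con, 5.51 and 4.19 in Lt and 1.11 and 1.49 in Ht, a log2 fold change of -2.05 ± 0.25 that became -0.87 under total-count scaling. Slc6a16 went from 9 and 28 reads in con to 0 in both Ht values, at least 19.2-fold lower.

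Against these, the creatine carrier Slc6a8 was at 2.79 and 2.17 FPKM in con, 3.26 and 3.87 in Lt, 3.47 to 6.89 in Mt and 6.43 and 6.23 in Ht. It rose by a log2 fold change of 1.34 ± 0.18 from con to Ht (adjusted p = 0.000358, edgeR). The taurine carrier Slc6a6 was not called: 18.0 and 19.1 FPKM in con and 12.4 and 13.7 in Ht, with a log2 fold change of -0.52 ± 0.20 that turned to 0.66 under total-count scaling.

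Of the remaining families, Slc43a1, a facilitated carrier of branched-chain amino acids, was at 1.99 and 1.85 FPKM in con and fell to 0.246 and 0.147 in Ht (log2 fold change -3.27 ± 0.62, adjusted p = 0.00154, edgeR). Its paralog Slc43a2 and the proton-coupled Slc36a1 and Slc36a4 were not called in tissue, nor were Slc38a6, Slc38a7, Slc38a9, Slc38a10 and Slc43a3, the last at 10.5 to 15.9 FPKM. Slc6a2 and Slc36a2, with at most 16 and 12 reads in a library, were not called in any comparison. For Slc36a1, Slc38a7 and Slc38a9 the log2 fold change from con to Ht changed sign with total-count scaling, from -0.45, -0.62 and -0.75 to 0.73, 0.57 and 0.44. Slc7a6os stayed between 4.02 and 6.12 FPKM in all tissue libraries, against 0.0377 to 5.13 for its neighbour Slc7a6.

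**Figure D4:**
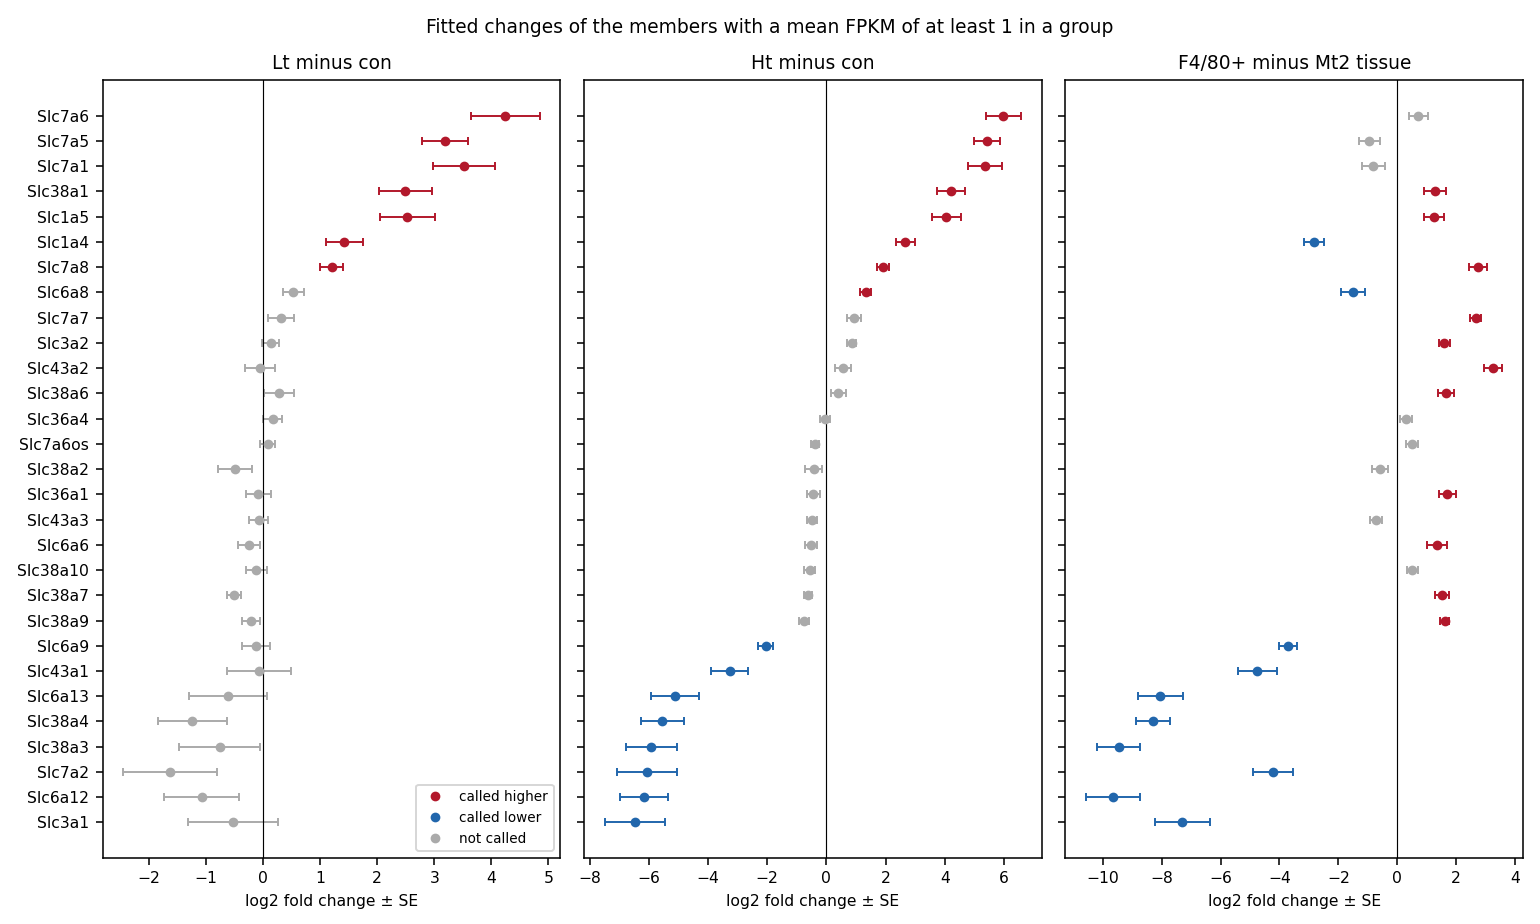
Fitted log2 fold change ± SE (horizontal axis) of the 29 members with a mean FPKM of at least 1 in a group (rows), for Lt minus con, Ht minus con and F4/80+ cells minus Mt2 tissue; colors mark the calls. From con to Lt only higher calls appear, up to 4.24 for Slc7a6, and from con to Ht the values run from -6.47 for Slc3a1 to 5.99 for Slc7a6.

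The promoters of members that rose were read for short motifs, since several, such as Slc7a11, are known targets of the amino acid response. RefSeq promoters (GRCm38.p6, 250 bases before to 50 after the start) were found for 45 members (66 promoters), among them 5 of the 9 called higher. The amino acid response element core TGATGNAA, bound by ATF4, was searched on both strands and stood in 2 of the 7 promoters of those 5 genes (28.6%), in 0 of 17 promoters of members called lower, in 3 of 42 promoters of members not called or not tested (7.14%), in 7.58% of all member promoters and in 3.97% of all 32851 promoters. Slc7a11 (chr3:50443564-50443863, minus strand) held it at 66 and 47 bases before the start, on opposite strands, and Slc1a4 (chr11:20332664-20332963, minus strand) at 4 bases before. The other matches were in the overlapping promoter windows of Slc7a7, which was not called and where 1 site lies in both windows, and 1 in Slc6a21, which was not tested. The matched bases are in capitals, read 5′ to 3′ toward the gene:

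Slc7a11: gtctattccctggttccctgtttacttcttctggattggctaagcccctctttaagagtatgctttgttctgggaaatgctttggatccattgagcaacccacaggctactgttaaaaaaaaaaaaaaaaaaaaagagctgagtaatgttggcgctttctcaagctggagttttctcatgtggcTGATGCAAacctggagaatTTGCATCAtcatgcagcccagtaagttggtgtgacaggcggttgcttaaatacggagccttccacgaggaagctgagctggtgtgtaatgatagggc

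Slc1a4: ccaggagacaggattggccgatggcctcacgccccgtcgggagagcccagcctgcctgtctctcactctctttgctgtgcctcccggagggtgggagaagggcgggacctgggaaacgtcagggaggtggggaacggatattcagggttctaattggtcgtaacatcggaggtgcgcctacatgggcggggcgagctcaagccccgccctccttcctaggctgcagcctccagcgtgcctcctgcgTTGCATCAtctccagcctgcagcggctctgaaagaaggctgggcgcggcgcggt

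The antioxidant response element core TGACNNNGC was in 2 of the same 5 genes (40%), in 4 of 7 genes called lower (57.1%), in 9.09% of member genes not called or not tested and in 14% of all genes. By promoter it was in 3 of 7 (42.9%), where overlapping windows of Slc7a6 hold the same site, in 29.4% of those of members called lower, in 7.14% of those of members not called or not tested, in 16.7% of all member promoters and in 12.4% of all promoters, and no member promoter held both motifs. It stood in Slc7a1 (chr5:148399855-148400154, minus strand) at 11 bases before the start and in Slc7a6 (chr8:106168604-106168903, plus strand) at 1 base before, shown with the match in capitals. The HNF1 core GTTAATNAT, of a liver factor, was in 0 of the 66 member promoters and in 0.801% of all promoters. A match is a description of the letters only, and no match says only that these letters are not in the window.

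Slc7a1: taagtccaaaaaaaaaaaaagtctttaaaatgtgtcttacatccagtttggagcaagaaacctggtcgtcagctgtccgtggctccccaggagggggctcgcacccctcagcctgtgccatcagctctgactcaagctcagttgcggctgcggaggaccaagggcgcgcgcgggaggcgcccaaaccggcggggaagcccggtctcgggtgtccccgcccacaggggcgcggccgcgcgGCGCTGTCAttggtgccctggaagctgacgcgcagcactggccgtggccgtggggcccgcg

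Slc7a6: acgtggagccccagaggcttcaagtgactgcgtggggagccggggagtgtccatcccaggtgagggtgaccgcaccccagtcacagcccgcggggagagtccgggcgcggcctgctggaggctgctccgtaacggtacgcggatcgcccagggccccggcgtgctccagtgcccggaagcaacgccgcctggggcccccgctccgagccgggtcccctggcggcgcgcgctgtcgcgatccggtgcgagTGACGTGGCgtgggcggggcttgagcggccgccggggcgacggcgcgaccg

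Between the sorted populations no member was called by edgeR, of 29 tested, where 0.00701% of all 14263 genes were called higher and 0.0701% lower in F4/80+ than in CD11b+ cells. At an unadjusted p under 0.05 there was 1 member, Slc7a11, which DESeq2 called lower in F4/80+ cells (log2 fold change -1.43, adjusted p = 0.0145). It was at 0.120, 0.173 and 0.181 FPKM in F4/80+ and 0.252, 0.571 and 0.396 in CD11b+ cells, without overlap. The fitted differences ran from -1.42 to 1.09 on the log2 scale, 27 of 29 under 1 in size, with standard errors of 0.13 to 0.61. For Slc7a5 the difference was 0.16 ± 0.32, for Slc3a2 0.13 ± 0.18 and for Slc7a8 0.42 ± 0.30. CD11b+ replicate 3, the library richest in neutrophil markers, was the lowest of the 6 for Slc7a8 (18.4 FPKM against 38.4 to 49.0), Slc6a6 (13.2 against 31.7 to 41.4), Slc43a2 (16.7 against 28.4 to 35.0) and Slc36a1 (9.53 against 18.1 to 21.7). The part of neutrophil RNA in these values was not tested.

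In both populations Slc3a2 led, at 98.5, 73.7 and 77.7 FPKM in F4/80+ and 66.6, 70.9 and 82.3 in CD11b+ cells. Next by mean were Slc7a8, Slc6a6 and then Slc43a2 or Slc38a10, and the CD11b+ libraries of these 4 overlapped each other. Compared with Mt2 tissue, their source, 12 of 37 members were called higher in F4/80+ cells (32.4%, against 17.2% of all 18407 genes) and 12 lower (32.4%, against 25.2%). In CD11b+ cells 12 were higher (32.4%, against 17.6%) and 13 lower (35.1%, against 26.3%). Both used the same 2 Mt2 libraries, the sorted cells are in a separate count table, and table, bead isolation and cell type cannot be told apart here. The members' median log2 fold change was 0.27 in F4/80+ and 0.39 in CD11b+ cells against -0.12 and -0.08 over all genes, and with members at or under the floor set to their bound it was 0.27 and 0.00.

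Among the light chains Slc7a7 and Slc7a8 were called higher in both populations. Slc7a8 was at 6.36 and 7.42 FPKM in Mt2 tissue, at 48.0, 42.6 and 49.0 in F4/80+ cells and at 38.4, 43.8 and 18.4 in CD11b+ cells, log2 fold changes of 2.76 ± 0.31 and 2.28 ± 0.30 (adjusted p = 4.11e-06 and 1.68e-05, edgeR). Slc7a7 was at 4.04 and 4.04 FPKM in Mt2, at 27.6, 23.6 and 25.8 in F4/80+ and at 22.6, 22.5 and 20.2 in CD11b+ cells (2.66 ± 0.19 and 2.43 ± 0.18). Slc43a2, a facilitated carrier of large neutral amino acids, had the largest log2 fold change of those with at least 1 FPKM: 3.16 and 3.56 FPKM in Mt2, 33.6, 35.0 and 28.4 in F4/80+ and 29.2, 29.5 and 16.7 in CD11b+ cells (3.27 ± 0.31 and 2.90 ± 0.30). All sorted libraries lay above both Mt2 libraries for these 3 genes.

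Slc3a2 was called higher in both populations, with log2 fold changes of 1.60 ± 0.19 and 1.41 ± 0.18 over 25.3 and 29.8 FPKM in Mt2. Of the Slc36 family and the Slc38 members outside systems A and N, Slc36a1, Slc36a3, Slc38a6, Slc38a7 and Slc38a9 were called higher in both populations, and Slc36a4 (log2 fold change 0.30 and -0.13) and Slc38a10 (0.52 and 0.47) in neither. Slc36a1, the proton-coupled exporter of small amino acids from lysosomes, was at 6.93 and 5.35 FPKM in Mt2 and 18.1 to 21.7 in F4/80+ cells (1.70 ± 0.28). Slc38a9, the lysosomal arginine sensor of the mTORC1 pathway, was at 0.581 and 0.577 FPKM in Mt2, at 1.60 to 1.88 in F4/80+ and at 1.45 to 1.70 in CD11b+ cells (1.61 ± 0.16 and 1.47 ± 0.16), and Slc38a7, a lysosomal glutamine exporter, at 5.84 and 5.70 and at 15.4 to 17.6 and 7.13 to 15.2, where the CD11b+ call was lost without CD11b+ replicate 1 or 2.

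Slc6a6, the taurine carrier, was at 14.9 and 12.8 FPKM in Mt2, 33.6, 35.0 and 37.5 in F4/80+ and 31.7, 41.4 and 13.2 in CD11b+ cells, where replicate 3 lay between the Mt2 libraries. The CD11b+ call (log2 fold change 1.05 ± 0.34, adjusted p = 0.0164, edgeR) was lost without CD11b+ replicate 2 or Mt2 replicate 2 and in a fit of only the groups compared. Slc1a5 was at 4.49 and 10.4 FPKM in Mt2, at 14.3, 19.8 and 19.6 in F4/80+ and at 20.6, 21.1 and 17.8 in CD11b+ cells (1.26 ± 0.34 and 1.41 ± 0.34). Both calls were lost without Mt2 replicate 1. Slc38a1 was called in F4/80+ cells (1.27 ± 0.37, lost without Mt2 replicate 1 and under total-count scaling) and was at 1.00 ± 0.37, just under the fold threshold, in CD11b+ cells, where DESeq2, the replicate block, no filter and leaving out CD11b+ replicate 3 or Mt2 replicate 2 called it, and the difference between the populations was not called.

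Slc36a3 was called higher from low reads, 0 and 2 in Mt2 and 12 to 17 in F4/80+ cells, and Slc7a11 was called higher in CD11b+ cells (0.131 FPKM in both Mt2 libraries, log2 fold change 1.63 ± 0.58).

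Of the 10 members lower in Ht than in con, 9 were also called lower in both sorted populations and Slc7a4 in neither (log2 fold change 0.81 and 0.39). Slc38a3, Slc38a4, Slc7a2, Slc3a1, Slc6a9, Slc6a12, Slc6a13, Slc6a16 and Slc43a1 were the 9. Of all genes, 25.2% were called lower in F4/80+ and 26.3% in CD11b+ cells. The share among all genes lower in Ht than in con was not counted, so the overlap is no result about the members. Slc38a3 was at 187 and 36.3 FPKM in Mt2, 0.121 to 0.220 in F4/80+ and 0.0450 to 0.0880 in CD11b+ cells, and Slc7a2, which macrophages can induce, was at 30.2 and 5.83, 0.686 to 1.43 and 0.438 to 0.912. All 8 hepatocyte markers were likewise called lower in both populations. Slc1a6 was called lower in both from 0 and 9 reads in Mt2, which overlapped the sorted libraries at 0.

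Slc1a4 and Slc6a8 were higher in Ht than in con yet lower in sorted cells than in Mt2. Slc1a4 was at 4.96 and 6.52 FPKM in Mt2, at 0.888, 0.550 and 0.980 in F4/80+ and at 0.858, 0.549 and 0.355 in CD11b+ cells (log2 fold change -2.83 ± 0.34 and -3.28 ± 0.35, adjusted p = 8.05e-06 and 2.2e-06, edgeR). Slc6a8 was at 4.20 and 5.02 FPKM in Mt2, 1.59, 1.47 and 1.83 in F4/80+ and 1.21, 2.39 and 0.401 in CD11b+ cells (-1.50 ± 0.42, lost without Mt2 replicate 2, and -1.78 ± 0.42). No sorted library reached an Mt2 library for either gene. All 8 fibroblast and stellate markers were also called lower in both populations, at 21.3 to 63.0 FPKM in sum against 431 and 700 in Mt2, and their part in these values was not tested.

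Slc7a5, at 18.9 and 24.7 FPKM in Mt2, was at 10.1, 10.7 and 13.1 in F4/80+ cells (log2 fold change -0.95 ± 0.36, adjusted p = 0.0365, not called, but called at -1.13 without Mt2 replicate 1) and 10.6, 13.6 and 5.07 in CD11b+ cells (-1.15 ± 0.36, adjusted p = 0.0132, edgeR). The CD11b+ call was lost without CD11b+ replicate 3 or Mt2 replicate 2 and in a fit of only the groups compared (adjusted p = 0.0581, edgeR). Slc7a1 and Slc7a6 were not called in either population: Slc7a1 was at 3.31 and 6.05 FPKM in Mt2 and 1.53 to 3.46 over the 6 sorted libraries, and Slc7a6 at 1.89 and 4.04 and at 3.76 to 5.48. Without Mt2 replicate 1 Slc7a1 was called lower in both, and without CD11b+ replicate 2 it was called lower in CD11b+ cells (log2 fold change -1.23). Without Mt2 replicate 2 Slc7a6 was called higher in both.

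**Figure D5:**
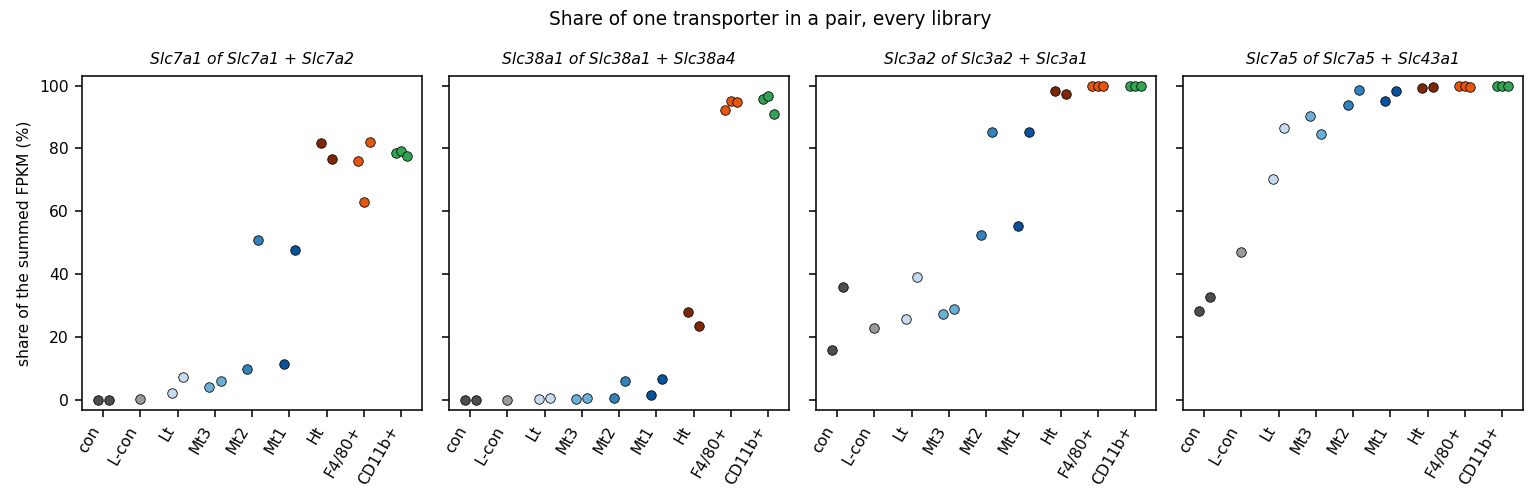
Share (%) of the first-named transporter in the summed FPKM of a pair, for every library of the 9 groups; points are libraries, Ht replicate 1 the sum of 2 libraries. Slc7a1 of Slc7a1 and Slc7a2 is 0.0955% and 0.166% in con and 76.6% and 81.7% in Ht, and the second Mt2 and Mt1 libraries, at 50.9% and 47.9%, lie far above the first, at 9.87% and 11.5%.

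The other pairs, also chosen after the values were seen, are given as levels with no test. Of Slc3a2 and Slc3a1, Slc3a2 held 16.1% and 36.0% of the summed FPKM in con, 97.4% and 98.4% in Ht and at least 99.7% in the sorted cells. Of Slc7a5 and Slc43a1, both carriers of branched-chain amino acids, Slc7a5 held 28.5% and 32.8% in con, 70.2% and 86.4% in Lt and 99.3% and 99.6% in Ht. Slc38a1 held 0.0281% and 0.0507% of its pair with Slc38a4 in con, 23.6% and 28.0% in Ht and 91.1% to 96.6% in sorted cells. In the Mt2 and Mt1 pairs the share of Slc7a1 was higher in the library with the lower hepatocyte markers.

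The L-con library, with no replicate and no test, came from liver remote from tumor. Of 32 members with at least 10 counts in it or in con, 14 lay above both con libraries, 11 below both and 7 between them. The shares of all genes in these positions were not counted, so these counts are no result about the members. Slc7a5 was at 2.49 FPKM (107 reads) against 0.790 and 0.907, Slc1a4 at 2.31 against 0.816 and 1.30, and Slc7a1 at 0.412 against 0.238 and 0.0972. Slc38a4 was at 286 FPKM against 419 and 409, and Slc7a2 at 78.2 against 144 and 102. These were picked after their values were seen. Slc43a1 was at 2.79 FPKM, above con (1.99 and 1.85) and Lt (1.98 and 1.68), and Slc7a6 was at 0.359 FPKM from 19 reads against 6 and 2 reads in con. The library's hepatocyte markers summed to 62170 FPKM, below both con libraries, its macrophage markers to 447 FPKM, above con, and its fibroblast markers to 107 FPKM against 49.5 and 66.6, and their part in these levels was not tested.

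Genes that act with the carriers were counted from lists. Of 20 genes of the amino acid response, 7 were called higher and 0 lower from con to Lt (12.4% and 0.256% of all genes), 10 higher and 2 lower from con to Ht (25.8% and 24.1% of all genes) and 0 from Mt to Ht. Phgdh, the first enzyme of serine synthesis, rose from 0.234 FPKM in con to 85.1 in Ht (log2 fold change 8.48 ± 0.78, adjusted p = 9.16e-05, edgeR) and Psat1, of the same pathway, from 0.115 to 34.0. The 2 lower were the transcription factor Atf5 (-1.51 ± 0.36) and Shmt2, the mitochondrial serine enzyme (-1.19 ± 0.23). In the sorted cells 4 or 5 of the list were higher than in Mt2 (17.2% and 17.6% of all genes) and 8 lower in each (25.2% and 26.3%), with Atf3, a stress-induced factor, at 131 FPKM in F4/80+ cells against 2.83 in Mt2.

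Of 22 genes of hepatic amino acid catabolism, 0 were called from con to Lt (median log2 fold change -0.94), 21 lower from con to Ht (median -6.55, with 24.1% of all genes lower) and 21 lower from Mt to Ht (13.4% of all genes). Gnmt, the glycine methyltransferase of liver, went from 3005 FPKM in con to 8.81 in Ht and Hal, the histidine-degrading enzyme, from 136 to 0.375. Of 15 genes of glutamine, glutamate and glutathione handling, 12 were lower and 2 higher from con to Ht, against the same 24.1% and 25.8% of all genes. The liver glutaminase Gls2 fell from 278 FPKM to 1.40 (log2 fold change -7.65 ± 1.11, adjusted p = 0.000433, edgeR). Of 13 tested genes of other amino acid and peptide carriers, 10 were lower and 1 higher from con to Ht, against the same shares of all genes: the lysosomal peptide carrier Slc15a3 rose from 1.52 to 4.98 FPKM, and the mitochondrial ornithine carrier Slc25a15 fell from 128 to 4.85. Slc15a3 was also higher in F4/80+ cells (44.1 FPKM) than in Mt2 (5.75 FPKM).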

How the data were processed

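Bulk RNA sequencing was measured in 14 tissue and 6 sorted-cell libraries, made with TRIzol and NEBNext Ultra RNA kits. The authors deposited raw counts per gene in 2 tables. The submitters' processing notes name CASAVA, HISAT2 2.0.5, featureCounts 1.5.0-p3 and GRCm38/mm10. Every sample column was mapped to a labelled sample, and 0 were left unmapped.

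The counts were tested with edgeR 4.0.16 (R 4.3.3; TMM scaling, filterByExpr, quasi-likelihood F test, Benjamini-Hochberg adjustment over all genes tested), with 1 fit for tissue, 1 for sorted cells and 1 joint fit for sorted cells against Mt2. Ht replicates 1 and 3 were summed. FPKM used the deposited gene lengths and the TMM factors of the joint fit. DESeq2 1.42.0, total-count scaling, other filters, left-out libraries and a replicate block were alternatives. The steps were tested on simulated data. Figures used matplotlib 3.10.9.

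Members, gene lists and tests were chosen with earlier results of these data known. Members called in at least 1 comparison with a mean of at least 1 FPKM in a group were given by sample or range, and the others by counts and ranges. From each pathway list at most the 2 called genes with the largest change in each direction were named. Motifs were searched in RefSeq promoters of GRCm38.p6. Intervals from counts would cover counting error only.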

Additional observations from a re-analysis of the deposited data

Results flagged for a closer look

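Slc7a5 in the L-con library, which entered no comparison between groups, was 2.75 times as high as in the higher con library (2.49 FPKM from 107 reads against 0.907 FPKM from 39 reads). The library has no replicate, so the difference was not tested. Slc7a6 had a larger ratio, 2.99, but from 19 reads against 6 and 2, where a con library is under the floor of 3 counts.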

How the results depend on the processing

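From con to Lt the 7 calls became 11 with no filter on low counts (8 higher, 3 lower, with 9.43% and 1.28% of all genes). Fewer members, and fewer of all genes, were called without either con library or without Lt replicate 2. From con to Ht the 19 calls were 16 to 24 under the alternatives that kept the fold threshold and all libraries. In these, 16.6% to 51.3% of all genes were called higher and 13.1% to 25.4% lower. Leaving out a library leaves 1 in con or in Ht, and those calls are not counted here. From Mt to Ht the 11 calls ran from 0 to 16 with 1 library left out: 0 without either Ht library, when 0% of all genes were called, and 16 without Mt2 replicate 2, when 4.75% of all genes were called higher and 16.05% lower against 1.5% and 13.4%. Between the sorted populations DESeq2 gave 1 call against 0, with 0.932% of all genes higher and 1.17% lower against 0.00701% and 0.0701%. Against Mt2, requiring at least 10 counts in every library left 15 calls in F4/80+ and 15 in CD11b+ cells, of 22 members tested in each, against 24 and 25. In these fits 16.4% and 16.8% of all genes were higher and 18.4% and 19.2% lower. Among the 24 members called in at least 1 comparison with at least 1 FPKM, no called value changed sign, and values that were not called did in 32 cases. Of these, 14 came under total-count scaling: from con to Lt Slc43a1 (0.22), Slc6a9 (0.14), Slc36a1 (0.21), Slc38a9 (0.08), Slc43a2 (0.27) and Slc6a6 (0.031), from con to Ht Slc36a1 (0.73), Slc38a7 (0.57), Slc38a9 (0.44) and Slc6a6 (0.66), and from Mt to Ht Slc36a1 (0.36), Slc38a7 (0.45), Slc38a9 (0.19) and Slc6a6 (0.34), all negative under TMM. This scaling raises all genes of a comparison alike, with their median going from 0.10 to 0.40, 0.09 to 1.27 and 0.00 to 0.55, so small negative values turn by its construction. Slc36a4, outside these 24, went from -0.05 to 1.13 from con to Ht and was called. The other 18 came with 1 library left out. Then the log2 fold change from con to Lt ran from -0.40 to 0.30 for Slc36a1, -1.11 to 0.41 for Slc3a1, -0.20 to 0.043 for Slc43a1, -0.47 to 0.28 for Slc43a2 and -0.35 to 0.09 for Slc6a9, and from Mt to Ht from -0.23 to 0.30 for Slc38a6. Between F4/80+ and CD11b+ cells it ran from -0.035 to 0.43 for Slc38a1, -0.009 to 0.24 for Slc3a2, -0.089 to 0.60 for Slc6a6, -0.19 to 0.95 for Slc6a8, -0.17 to 0.39 for Slc7a1, -0.15 to 0.47 for Slc7a5 and -0.057 to 0.125 for Slc7a6. The cause of the other changes was not tested.

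Between the groups compared, replicate numbers were not taken to pair the samples: deviations of same-numbered libraries correlated at -0.249 to 0.093. With the replicate block the calls numbered 7 from con to Lt, 19 from con to Ht, 12 from Mt to Ht, 0 between the sorted populations, and 23 and 25 against Mt2. Exchanging the numbers, an alternative chosen after seeing the data, gave 7 from con to Lt and 12 from Mt to Ht. Of all genes, 11.2% were then higher and 0.215% lower from con to Lt, and 2.69% and 14.3% from Mt to Ht. Counting Ht as 3 libraries gave 20 calls from con to Ht (26.6% of all genes higher, 24.3% lower) and 12 from Mt to Ht (2.65% and 15.2%). Low members are limited by the floor of 3 counts.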
